A study of Mus musculus with 4 samples.

Results

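Expression of 8 cytoskeletal genes of neurons was described in mouse mPFC, the medial prefrontal cortex, which lies in the frontal part of the brain. They were the genes of the neurofilament subunits Nefl, Nefm, Nefh and Ina, and of the microtubule-associated proteins Mapt, Map2, Map1a and Map1b. They were chosen by symbol and not by a cutoff on their values, though earlier results of these data were known. All 8 were found among the 17778 genes of the expression table. Messenger RNA was sequenced from 2 libraries of control mice and 2 libraries of mice exposed to chronic unpredictable mild stress (CUMS). All mice were labelled C57BL/6, a common inbred strain (C57BL/6J in the methods of the study), and were juvenile males when the procedure started. The CUMS mice lived alone and went through changing mild stressors for weeks, whereas the control mice lived without these stresses. Of the stressed mice, those that became depression-like in the tests of sucrose preference, Y-maze and forced swimming were used, so that the CUMS group stands for vulnerable mice and not for every stressed mouse. Tissue of both hemispheres was taken a day after the tests.

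The axon and the dendrite are held by neurofilaments and by microtubules. Neurofilaments are intermediate filaments in which the light, medium and heavy subunits (Nefl, Nefm, Nefh) and internexin (Ina) assemble together, and they support the caliber of axons. The medium and heavy subunits carry long tails whose lysine-serine-proline motifs are phosphorylated. Microtubule-associated proteins bind and stabilize microtubules. Tau (Mapt) is known mainly from axons and Map2 from dendrites, while Map1b is prominent in growing neurites and Map1a in mature ones.

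The table gave 1 mean per gene and group in RPKM (reads scaled to gene length and to sequencing depth), which the authors had averaged over the libraries, and no value for a single library. The sources used here do not say whether a library stands for a single mouse. The spread between libraries was thus unknown for every difference below, no test was possible, and what is given beside a difference is a 95% interval of counting error alone. The interval came from the depth estimated on the lowest values, 7385524 fragments for each control library and 7440476 for each of CUMS. In whole tissue, fewer cells of a type and less RNA per cell cannot be told apart.

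The coding sequences showed how the 8 genes differ in the parts that the proteins are known for. In-frame codons were searched in the longest coding sequence of each gene in GENCODE M21. A lysine-serine-proline run was AAA or AAG, then TCN, AGC or AGT, then CCN, and occurred 51 times in Nefh, 4 times in Nefm, 0 times in Nefl and 0 times in Ina. It was also found 4 times in Map1a, 3 times in Map1b and 2 times each in Mapt and Map2, so that the count of Nefm was not above that of Map1a. At least 1 such run was present in 10.6% of 21540 coding genes, and no gene had more than Nefh. The first sequences below are stretches of 150 coding bases of the tails with the most such runs, which are in capitals. Later stretches of both genes held as many runs, and the first of each gene is printed. That of Nefh lies in exon 4 of 4, at chr11:4940905-4941054 on the minus strand of GRCm38, and that of Nefm in exon 3 of 3, at chr14:68120934-68121083 on the minus strand.
Nefh: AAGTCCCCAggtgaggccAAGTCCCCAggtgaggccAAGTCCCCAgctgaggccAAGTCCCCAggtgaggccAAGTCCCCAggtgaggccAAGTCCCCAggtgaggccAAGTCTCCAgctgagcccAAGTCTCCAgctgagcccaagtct
Nefm: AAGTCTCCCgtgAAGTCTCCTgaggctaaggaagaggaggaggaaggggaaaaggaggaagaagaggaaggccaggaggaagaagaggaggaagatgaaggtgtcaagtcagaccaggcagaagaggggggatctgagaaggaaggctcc

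A run of proline and 3 glycines (CCN, then GGN in each of the 3 codons that follow), which closes the microtubule-binding repeats, occurred 4 times in Mapt and 2 times in Map2, and in neither Map1a nor Map1b. It was present in 2.21% of coding genes. The last 48 bases of a repeat of Map2, which end in the run in capitals, lie at chr1:66438310-66438357 (plus strand, exon 14 of 15).
Map2: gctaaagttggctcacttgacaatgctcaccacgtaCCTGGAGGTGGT

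A lysine-lysine-glutamate run (AAA or AAG in each of 2 codons, then GAA or GAG), which recurs in the microtubule-binding part of Map1b, occurred 18 times in Map1b and 3 times in Map1a. Nefh and Map2 held it 4 times each, Nefm 3 times, Nefl and Ina 1 time each, and Mapt 0 times. The count of Map1a was thus equal to that of Nefm and below those of Nefh and Map2. At least 1 such run was in 14.4% of coding genes. The stretches of 90 bases with the most runs, in capitals, lie at chr13:99434040-99434129 for Map1b (minus strand, exon 5 of 7) and at chr2:121300676-121300765 for Map1a (plus strand, exon 5 of 7).
Map1b: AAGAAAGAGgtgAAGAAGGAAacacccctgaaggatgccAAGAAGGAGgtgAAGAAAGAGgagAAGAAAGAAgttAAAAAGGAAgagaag
Map1a: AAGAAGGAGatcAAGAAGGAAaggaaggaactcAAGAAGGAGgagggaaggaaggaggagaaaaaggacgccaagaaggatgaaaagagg

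**Figure D1:**
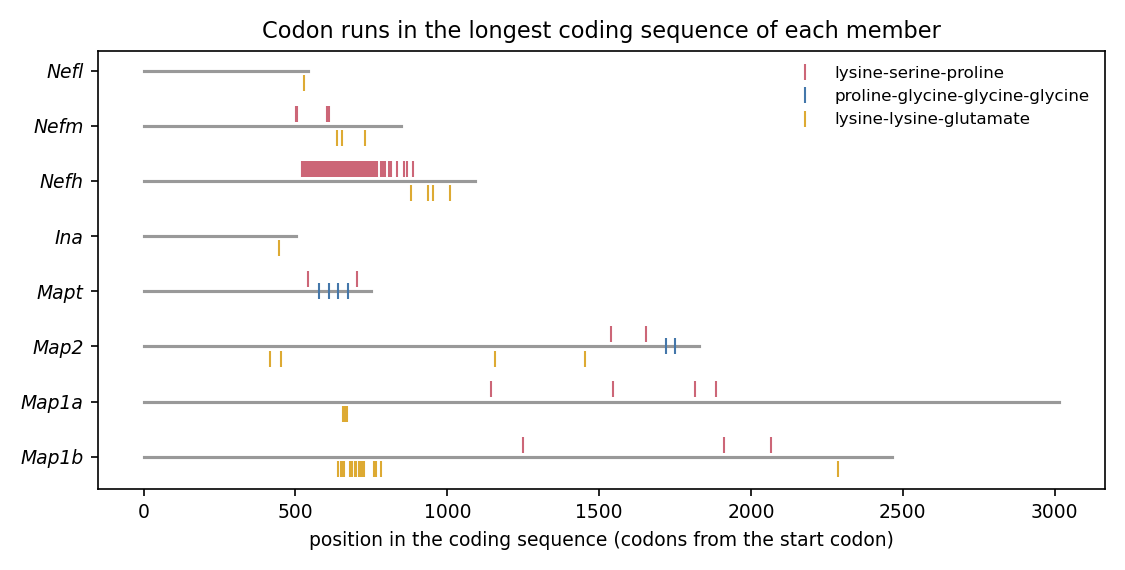
Each line is the longest coding sequence of a member in codons from the start codon, and ticks mark the 3 kinds of codon run. The 51 lysine-serine-proline runs crowd in the later part of Nefh, while Nefl and Ina have 0.

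The first comparison asked whether neurofilament mRNA differed between depression-like and control mice. The means of Nefm, Nefh and Ina were 13.97% to 22.7% lower in CUMS, whereas that of Nefl, the most abundant subunit, was 2.16% lower, within its counting interval.

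Nefh (gene 380684, chromosome 11, 4938754 to 4948064), the heavy subunit, had a mean of 17.39 RPKM in control and of 13.45 RPKM in CUMS. Its log2 ratio of CUMS over control was -0.37 (counting interval -0.51 to -0.24), from an estimated 1029 and 801 fragments over the 2 libraries of each group. This was the largest difference among the 8 members, and 3.85% of the genes that reached 5 RPKM in one group or both had a ratio as low or lower.

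Nefm (gene 18040, chromosome 14, 68119545 to 68125004), the medium subunit, had a mean of 37.4 RPKM in control and of 30.4 RPKM in CUMS. Its log2 ratio was -0.30 (-0.40 to -0.20). Ina (gene 226180, chromosome 19, 47014681 to 47025327), an internexin that joins neurofilaments in the central nervous system, had a mean of 63.3 RPKM in control and of 54.5 RPKM in CUMS. Its log2 ratio was -0.22 (-0.31 to -0.13). In all of Nefh, Nefm and Ina the CUMS mean was the lower one by more than counting error.

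Nefl (gene 18039, chromosome 14, 68083863 to 68089095), the light subunit on which the others assemble, had a mean of 152 RPKM in control and of 149 RPKM in CUMS. Its log2 ratio of -0.03 (-0.09 to 0.03) held 0 in the counting interval. Nefl and Nefm are neighbors on opposite strands, 30449 bases apart by their RefSeq spans, and their ratios differed. In GENCODE M21, by contrast, exons of Nefm cover 1108 bases of Nefl on the opposite strand. The authors used a length of 3244 bases for Nefm, against 5782 exonic bases in GENCODE. Whether they counted the overlapping part is thus not known, and the use of strand in counting was not stated. A part of the reads of this pair could have been counted for the other gene. Ina shares 456 exonic bases with Nt5c2 in the same way, and Nefh shares none with another gene.

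**Figure D2:**
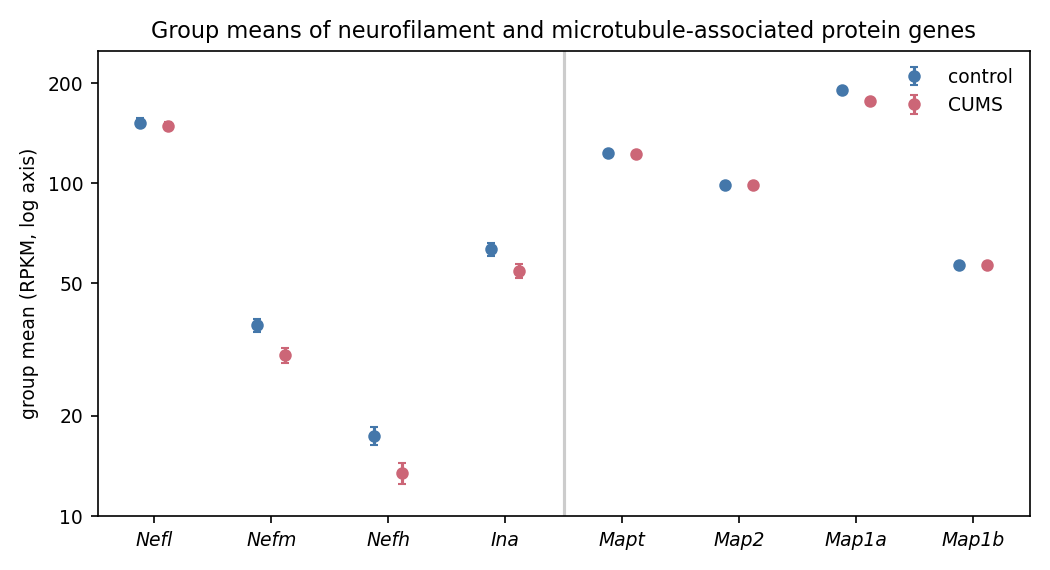
Points are the group means in RPKM on a log axis for control and CUMS, and bars are 95% counting intervals. Nefm, Nefh, Ina and Map1a have a lower mean in CUMS with intervals apart, while the points of Nefl, Mapt, Map2 and Map1b overlap.

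The makeup of the neurofilament mRNA pool was then compared, since a ratio of genes within a group does not depend on the scaling between groups. The sum of the 4 subunits came to 270 RPKM in control and to 247 RPKM in CUMS, a log2 ratio of -0.13 (-0.17 to -0.09). Unlike the shares below, this log2 ratio does depend on the scaling, and was -0.19 with the groups scaled to equal Actb. Of the sum of the 4 subunits per length, Nefl made up 56.3% in control and 60.2% in CUMS. Ina made up 23.4% and 22.04%, Nefm 13.8% and 12.3%, and Nefh 6.44% and 5.44%. The balance was thus shifted towards the light subunit.

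Set against Nefl, the level of Nefh per length went from 0.114 in control to 0.0904 in CUMS, a log2 change of -0.34 (-0.49 to -0.19). The ratio of Nefm to Nefl went from 0.246 to 0.204, a log2 change of -0.27 (-0.38 to -0.15), and that of Ina to Nefl from 0.416 to 0.366, a log2 change of -0.19 (-0.29 to -0.08). Each of these intervals lay below 0. The ratio of Nefh to Nefm was 0.465 in control and 0.442 in CUMS, and its log2 change of -0.07 (-0.24 to 0.09) was not larger than counting error, an interval that still allows a difference of either direction.

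**Figure D3:**
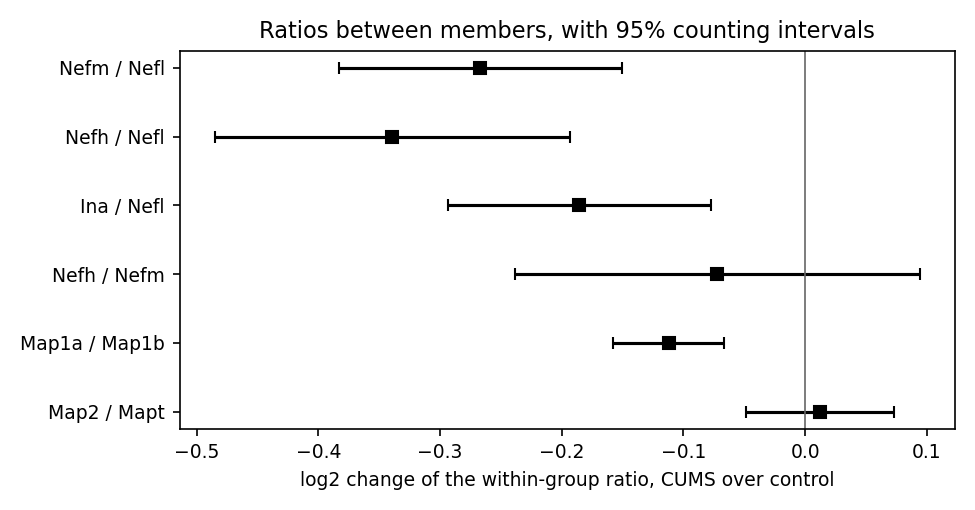
Squares are the log2 change, CUMS over control, of the ratio of 2 members within a group, and bars are 95% counting intervals. The 3 ratios to Nefl and the ratio of Map1a to Map1b lie below 0, and Nefh to Nefm and Map2 to Mapt have intervals that hold 0.

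The second comparison asked the same of the microtubule-associated proteins. The group means of Mapt, Map2 and Map1b differed by less than 1%, and Map1a was 7.53% lower in CUMS.

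Map1a (gene 17754, chromosome 2, 121289590 to 121310832) was the most abundant of the 8 members per length, with 191 RPKM in control and 177 RPKM in CUMS. Its log2 ratio was -0.11 (-0.14 to -0.09). Owing to a gene length of 11567 bases it rested on 32630 and 30397 estimated fragments, so that its interval was narrow. Of the genes that reached 5 RPKM, 24.8% had a ratio as low or lower. The difference was thus beyond counting error and of a size that many genes had.

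Mapt (gene 17762, chromosome 11, 104229409 to 104332090), which encodes tau, had a mean of 123 RPKM in control and of 122 RPKM in CUMS, a log2 ratio of -0.01 (-0.05 to 0.03). Map2 (gene 17756, chromosome 1, 66175202 to 66442583), the dendritic protein, was 98.5 and 98.6 RPKM, a log2 ratio of 0.0016 (-0.04 to 0.05), and was the 1 member with a higher mean in CUMS. Map1b (gene 17755, chromosome 13, 99421464 to 99516602) was 56.96 and 56.93 RPKM, a log2 ratio of -0.00076 (-0.04 to 0.04). For these genes no difference was detectable by counting, at the estimated depth and with the scaling as deposited. At a depth taken 4 times lower the intervals reached from -0.093 to 0.092, and with the groups scaled to equal Actb the log2 ratios were -0.072 for Mapt, -0.060 for Map2 and -0.062 for Map1b.

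The ratio of Map1a to Map1b was 3.35 in control and 3.10 in CUMS, a log2 change of -0.11 (-0.16 to -0.07), and that of Map2 to Mapt was 0.801 and 0.808, a log2 change of 0.01 (-0.05 to 0.07). The sum of the 4 genes came to 469 RPKM in control and to 454 RPKM in CUMS, a log2 ratio of -0.05 (-0.07 to -0.03). In the annotation, Map1a shares 272 exonic bases with Ppip5k1 and Map2 shares 124 with Gm10558, each on the opposite strand, and Mapt and Map1b share none.

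**Figure D4:**
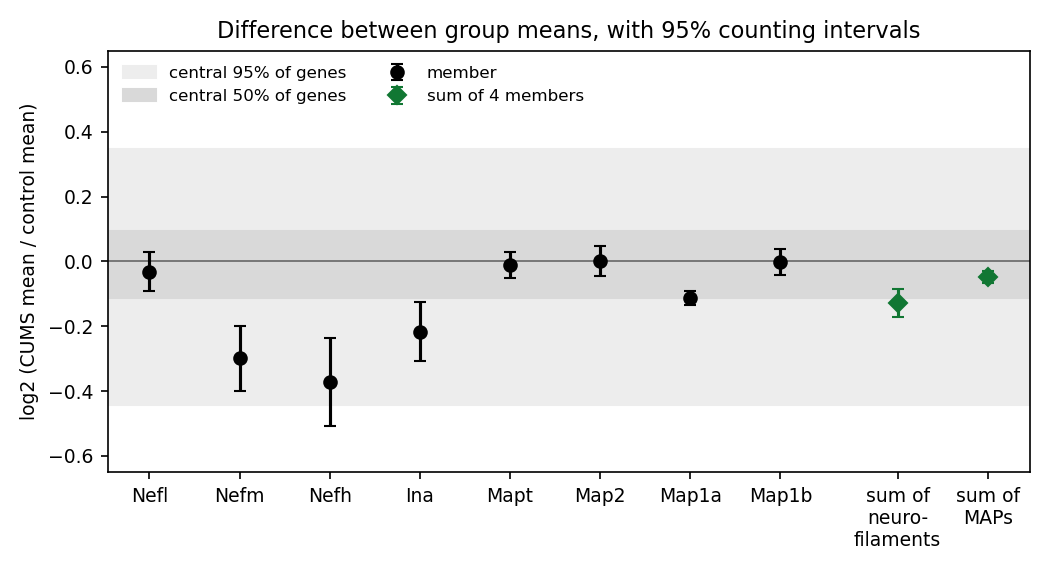
Points are log2 ratios of CUMS to control means with 95% counting intervals, diamonds are the sums of 4 members, and the grey bands hold the central 50% and 95% of 9397 genes with at least 5 RPKM. Nefm, Nefh, Ina and the sum of neurofilaments lie below the inner band and inside the outer one. Map1a (-0.113) lies just below the edge of the inner band (-0.112), and Mapt, Map2 and Map1b lie near 0.

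Across the 8 members, 7 had a lower and 1 had a higher mean in CUMS, with a median log2 ratio of -0.07, and the signs of Mapt, Map2 and Map1b turned with the scaling between groups while those of the other members did not under any scaling tried. Among the 9397 genes that reached 5 RPKM in one group or both, 4914 were lower and 4470 were higher, with a median of -0.01. No member (0 of 8) was past a 1.5-fold difference, which 1.6% of the 9397 genes passed. The study combined this fold threshold with a probability threshold, which was not applied here. A difference of more than 1.2-fold was seen in 2 members, Nefm and Nefh, both lower, beside 8.14% of genes lower by as much, and in 0 members higher, beside 5.49% of genes. The counting interval lay below 0 in 4 members, Nefm, Nefh, Ina and Map1a, against 19.3% of genes, and above 0 in 0 members, against 15.9%. These shares depend on depth. The members had 1830 to 63027 estimated fragments over all libraries, above the median of 1452 for the 9397 genes. At a depth taken 4 times lower the intervals of the same 4 genes still lay below 0.

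The order of levels per length was Map1a, Nefl, Mapt, Map2, Ina, Map1b, Nefm and Nefh in control, and the highest level was 10.98 times the lowest. In CUMS it was the same but for Ina and Map1b, which changed places, and the factor was 13.1. With the lengths used by the authors, Ina in control (counting interval 60.7 to 66.1 RPKM) lay above Map1b (55.8 to 58.1 RPKM). In CUMS the interval of Ina (52.0 to 57.0 RPKM) overlapped that of Map1b (55.8 to 58.1 RPKM), so that their order there was not resolved. All other neighbors in the order had counting intervals that did not overlap. Map1a ranked 320 of all genes in control and Nefh ranked 4559, and in CUMS these ranks were 359 and 5490.

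Levels rest on the gene lengths that the authors used. That of Nefl was 2014 bases, whereas its transcript in GENCODE M21 has 3380 bases, and that of Ina was 2272 bases against 3240 bases. If the same reads were spread over the longest annotated transcript, the control level would be 90.6 RPKM for Nefl and 44.4 RPKM for Ina. Nefl would still be the highest of the 4 subunits, above Ina, Nefm (33.0 RPKM) and Nefh. The order of the 8 members would change, with Mapt (122 RPKM) above Nefl and Map1b (57.2 RPKM) above Ina. In CUMS Map1b (57.1 RPKM) would be above Ina (38.2 RPKM) as well, so that these genes would no longer change places between the groups. The log2 ratio of a gene between groups does not depend on its length.

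Some of the gene ontology terms listed for the genes were looked up, so that all that the members share was not measured. All 4 microtubule-associated proteins carried the component term microtubule cytoskeleton (1.24% of all genes). Nefl, Nefm and Ina carried intermediate filament (0.197% of genes), and Nefl, Nefm, Nefh and Map1b carried neuron projection (1.52% of genes). The function term structural molecule activity was carried by Nefl, Ina and Mapt (1.88% of genes), and tubulin binding by Mapt and Map1b (0.596% of genes). By level in both groups, over 2 group means only, the genes nearest to Nefh were Timp4, Sox2 and Lrrc8a, at distances of 0.018 to 0.037 on the log2 scale. Those nearest to Map2 were Ube2ql1, Polr2m and Psmb1, at 0.0067 to 0.028.

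The third comparison set the members beside other genes of the cytoskeleton, in 7 lists. Over genes that reached 5 RPKM, none of these lists had a median log2 ratio as low as the -0.26 of the 4 neurofilament subunits. The summed subunits had a log2 ratio of -0.13. Among the marker lists read below, medians were lower still for GABAergic (-0.78), oligodendrocyte (-0.46), endothelial (-0.31) and striatal (-0.27) markers. The other marker lists had higher medians. Of the 100 genes of the 7 cytoskeletal lists, 0 were past 1.5-fold, beside 1.6% of the 9397 genes. Other intermediate filament genes had a median of 0.11, with 3 of 5 higher and 2 lower, beside 4470 higher and 4914 lower of 9397 genes. In this list Gfap, the filament of astrocytes, had a mean of 60.4 RPKM in control and of 45.4 RPKM in CUMS (log2 ratio -0.41), and Lmna, a lamin of the nucleus, was 25.1 and 27.1 RPKM (0.11). Of the 5 genes, Gfap alone had a counting interval apart from 0.

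Tubulins, the units of microtubules, were higher in 8 and lower in 4 of 12 genes, beside 4470 higher and 4914 lower of 9397 genes. Their median of 0.05 was below 0 when the groups were scaled to equal Actb. The most abundant, Tuba1a, had a mean of 996 RPKM in control and of 1087 RPKM in CUMS (log2 ratio 0.13), and Tuba1b was 539 and 523 RPKM (-0.04). Tubulin genes are similar to each other, so that the division of reads among them is uncertain. Other microtubule-binding proteins were split evenly (11 higher, 13 lower of 24, median -0.02). Among them the light chain genes Map1lc3a and Map1lc3b, known from autophagy, had log2 ratios of 0.13 and -0.03. The median was 0.06 over 7 stathmins and severing enzymes, which destabilize microtubules, and turned below 0 with equal Actb or with no minimum level. Stmn1 had a mean of 613 RPKM in control and of 760 RPKM in CUMS (log2 ratio 0.31, 0.27 to 0.35), and Stmn3 was 509 and 501 RPKM (-0.02).

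Kinases and phosphatases that act on tau and neurofilaments were higher in 17 and lower in 6 of 23 genes. Their median of 0.05 was below 0 with equal Actb. Among the 9397 genes, 4470 were higher and 4914 were lower. Camk2a, a kinase abundant at excitatory synapses, had a log2 ratio of 0.21 and the phosphatase subunit Ppp2r1a one of 0.05. Axonal transport motors were higher in 11 and lower in 10 of 21 genes (median 0.01, below 0 with equal Actb), with log2 ratios of -0.03 for the kinesin Kif5a and -0.03 for the dynein light chain Dynll2. Spectrins, ankyrins and their partners in the axon were higher in 3 and lower in 5 of 8 genes (median -0.04), with 0.03 for Sptan1.

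Of the 100 genes of these lists, 4 were lower and 2 were higher by more than 1.2-fold, beside 8.14% lower and 5.49% higher among the 9397 genes. They were Gfap, Tppp3 (-0.40), Tuba8 (-0.52) and Kif5b (-0.32) on the lower side, and Stmn1 and the calcineurin subunit Ppp3ca (0.28) on the higher side. Tppp3, Tuba8, Kif5b and Ppp3ca were named after their values had been seen.

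**Figure D5:**
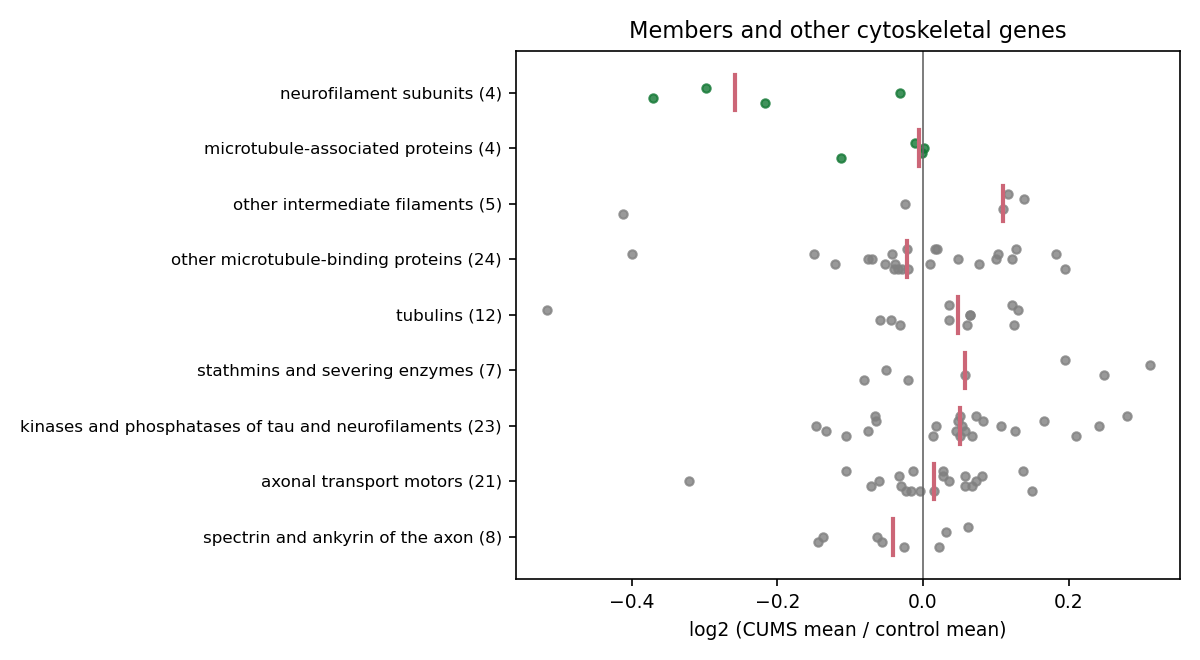
Each point is a gene that reached 5 RPKM, placed by list and by its log2 ratio of CUMS to control means, with the number of genes in brackets and the median as a red line. Of the lists shown, the neurofilament subunits have the lowest median, -0.26, and the other medians lie between -0.04 and 0.11.

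Related to the summed tubulins, the neurofilament sum was 7.16% in control and 6.27% in CUMS, and the microtubule-associated protein sum was 12.4% and 11.5%. Related to the summed transport motors, the neurofilament sum was 10.4% and 9.48%.

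Markers of cell types were read beside these results. Among the 9397 genes that reached 5 RPKM, 4470 were higher and 4914 were lower. The 6 markers of neocortical excitatory neurons were all higher in CUMS (log2 ratios 0.28 to 0.39, summed level 806 and 1002 RPKM in control and CUMS), and 6 of 7 pan-neuronal markers were higher (summed level 2656 and 2874 RPKM). Deep-layer projection neuron markers had a median of -0.03 over 5 genes, with 2 higher and 3 lower (log2 ratios -0.11 to 0.23). The counting interval lay above 0 in 2 of them and below 0 in 0. All 7 oligodendrocyte markers were lower (summed level 777 and 549 RPKM), as were all 6 striatal neuron markers (315 and 271 RPKM) and all 3 GABAergic neuron markers (279 and 173 RPKM). Astrocyte markers had a median of 0.07 over 5 genes, microglia markers of 0.06 over 4 genes and endothelial markers of -0.31 over 3 genes. Their log2 ratios reached from -0.41 to 0.12 for astrocytes, from -0.0085 to 0.54 for microglia and from -0.61 to 0.0080 for endothelium. The study lists all 3 GABAergic markers and, of the oligodendrocyte markers, Mobp and Cldn11 as lowered in these libraries. Neither set is thus independent evidence of a direction. The other marker sets share this limit. They rest on the same group means, and the lists were chosen with earlier results of these data known. None of these markers was listed at 0.01, the value that stands for 0. Relative to the summed pan-neuronal markers, the neurofilament sum was 10.2% in control and 8.60% in CUMS, and the microtubule-associated protein sum was 17.7% and 15.8%. Lower levels of Nefm, Nefh and Ina thus stood beside lower oligodendrocyte, striatal and GABAergic markers and beside higher markers of neocortical excitatory neurons. Endothelial markers were lower in 2 of 3 genes, and pan-neuronal markers higher in 6 of 7. The part of each in the result was not tested.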

How the data were processed

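Poly(A) RNA of the mPFC was sequenced as paired reads. Per the labels and the study's methods, reads were trimmed with SolexaQA, aligned to mm10 with TopHat 1.0.12 and Bowtie 0.11.3, and uniquely aligned reads were counted per gene. Annotation and strand were not given in the sources used here. The deposited values were RPKM, averaged by the authors over the 2 libraries of a group, with 0 listed as 0.01. Groups were taken from the sample titles. The table also held the authors' own log2 ratio, direction and NOISeq probability, which were not used. The members, lists and thresholds were chosen with earlier results of these data known.

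Log2 ratios were computed from the 2 group means with no pseudocount. Depth was estimated as the step that best divided the product of RPKM and gene length, in 406 control and 392 CUMS values with a length under 1000 bases and a product under 350. A tolerance of 0.15 steps around whole numbers held 86.5% and 86.2% of products, against 29.6% and 33.4% with lengths shuffled. The study's read numbers are higher, and the reason was not resolved. Intervals of single genes are exact Clopper-Pearson (ratios) or Poisson (levels) 95% intervals. Those of sums and of ratios between genes are normal on the log scale. They cover counting error only, and PCR duplicates could not be removed. The procedure was tested on simulated counts with counting error only and the same depth in every library. That test cannot speak to the spread between libraries or to the gap from the study's read numbers. The background was the genes that reached 5 RPKM in one group or both.

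Named were all 8 members, in each list the 2 genes with the highest control mean and any gene past 1.5-fold, and the 3 genes nearest in level to the members with the highest and the lowest ratio. Coordinates of genes are RefSeq spans on GRCm38.p6, found by identifier for all 8 members. Coding sequences were taken from GENCODE M21 (GRCm38). A sequence and a gene that the naming rule selected are not reported here. Alternatives were other scalings, a pseudocount, other thresholds and minimums and a lower depth. limma and fits that leave out a library need values of single libraries and were not run. Computations used Python 3.11.15 with numpy 2.4.6, pandas 2.3.3 and scipy 1.17.1.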

Additional observations from a re-analysis of the deposited data

How the results depend on the processing

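No paired analysis was possible because each gene has only 1 mean per group, and for the same reason leaving out a library and a replicate block were not run. Scaling the CUMS means so that the median log2 ratio was 0, the RPKM sum was equal or Gapdh was equal (shifts of 0.015, -0.0076 and 0.0043 in every log2 ratio) and a pseudocount of 1 RPKM left each of 19 values inside its counting interval, or, for the median of a list, inside the typical counting interval of the list's genes (the count of members past 1.5-fold stayed at 0). Rescaling to equal Actb, the other reference gene of the study, shifted every log2 ratio by -0.061 and moved 11 of 19. The ratios then were -0.093 for Nefl, -0.072 for Mapt, -0.060 for Map2, -0.17 for Map1a, -0.062 for Map1b, -0.13 for the median of the 8 members, -0.19 for the summed neurofilaments and -0.11 for the summed microtubule-associated proteins, so that Map2 had a lower mean in CUMS as well. The sign of Map2 also turned at an equal sum, those of Mapt and Map1b at a median of 0, and that of Map1b at equal Gapdh, each by less than counting error. The medians were -0.013 for tubulins, which turned the direction, -0.047 for transport motors, which turned it too, and -0.10 for spectrins and ankyrins, and those of stathmins and severing enzymes (-0.0033) and of kinases and phosphatases (-0.010) turned below 0 as well. Relative to the summed pan-neuronal markers, an alternative chosen after seeing the data, the neurofilament sum had a log2 ratio of -0.24 and the microtubule-associated protein sum one of -0.16. At a 1.2-fold threshold instead of 1.5-fold, 2 members passed, and with 2-fold 0 passed. With no minimum the median of stathmins and severing enzymes was -0.036, a turned direction, since 3 genes of low level entered. By reads per gene in place of reads per length, the control ratios to Nefl were 0.396 for Nefm, 0.227 for Nefh and 0.470 for Ina, and the change between groups was the same by construction. The lengths of GENCODE transcripts, also chosen after seeing the data, moved the control levels of 5 members and kept the order of the 4 subunits, but put Mapt above Nefl and Map1b above Ina.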
